A study of Rattus norvegicus with 10 samples.

Results

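The miRNAs miR-296 and miR-298 are made from neighbouring hairpins at the imprinted Gnas locus. Their 4 mature forms, miR-296-5p, miR-296-3p, miR-298-5p and miR-298-3p, were picked out by name from the 765 mature miRNAs of a small RNA sequencing table of rat hippocampus. All 4 are named in the table, and 3 of them had a value above 0 in all 10 libraries. The members were chosen with earlier results of these data known, in which miR-298-5p stood among the miRNAs with the smallest p values, so their levels, covariation and group differences are given as a description. The tissue was hippocampus of 10-week-old Wistar rats. In the 2-VO group (5 libraries, replicates 3, 5, 6, 7 and 8) the bilateral common carotid arteries were occluded, an operation that models chronic cerebral hypoperfusion, and the sham group (5 libraries, replicates 1 to 5) was sham-operated. No source used here tells how long after the operation the tissue was taken. Nor do the labels tie each library to its own animal, so the spread behind the p values is that between libraries and could be technical.

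The Gnas locus encodes the stimulatory G protein alpha subunit, which couples hormone and neurotransmitter receptors to cyclic AMP, and it uses several promoters that are active on the maternal or the paternal chromosome only. In mouse, the antisense transcript Nespas runs against Gnas from the paternal chromosome, and the miR-296 and miR-298 hairpins lie on that antisense strand. A miRNA hairpin is cut by the enzymes Drosha and Dicer into a duplex of a 5p and a 3p arm. The arm that stays in an Argonaute protein silences messenger RNAs that pair with its seed, bases 2 to 8 from the 5′ end. In human brain endothelial cells miR-296 is induced by angiogenic growth factors, and in mouse cells miR-298 represses Bace1, the enzyme that starts the release of amyloid beta from its precursor.

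The hairpins as RefSeq gives them are shown first, because the results turn on which arm of each was found. The mature arms are in capitals, 5p before 3p. On the GRCr8 assembly both lie on the minus strand of chromosome 3, Mir296 at chr3:183470069-183470146 and Mir298 at chr3:183470522-183470603, with 375 bases between them. The next annotated gene beyond Mir298 is Gnas, on the plus strand, and on the other side the next one is Npepl1. The deposited values were made on the build rn6, so these positions are those of RefSeq and not of the table.
Mir296: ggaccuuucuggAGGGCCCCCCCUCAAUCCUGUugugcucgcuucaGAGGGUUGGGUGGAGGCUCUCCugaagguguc
Mir298: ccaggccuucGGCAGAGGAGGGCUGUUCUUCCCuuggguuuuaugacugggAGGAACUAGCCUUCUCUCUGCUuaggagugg

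The mature sequences follow with the seed in capitals, to show that the 4 members have 4 different seeds.
miR-296-5p: aGGGCCCCcccucaauccugu
miR-296-3p: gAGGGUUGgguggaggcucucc
miR-298-5p: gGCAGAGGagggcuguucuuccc
miR-298-3p: aGGAACUAgccuucucucugcu

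Among the 690 names of the table with a RefSeq mature sequence, none other shared bases 2 to 8 or bases 2 to 7 with a member. The 75 names of the table without such a sequence were not compared. Of the 4 arms 3 are rich in G and C. The content was 66.7% for miR-296-5p, 68.2% for miR-296-3p, 65.2% for miR-298-5p and 50% for miR-298-3p, where the median of the 690 sequences was 47.8%. The miR-296-5p arm holds a run of 7 C bases. A run of at least 7 equal bases was found in only 2 of the 690 sequences, the other being miR-1249 (named after its values were seen), which was listed at 0.988 to 1.91 RPM.

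RPM is the number of reads of a mature miRNA scaled to a library of 1000000 reads. The reads behind the divisor numbered 13032805 to 13850400 per library, and the listed miRNAs summed to 60.3% (2-VO replicate 3) to 78.0% of them. In this sum some reads may count under more than 1 name, since let-7a-1-3p and let-7c-2-3p had the same mean and SD in both groups. The values are whole multiples of 1 read. No library lists a miRNA with fewer than 10 reads other than as 0, so a listed 0 is taken to mean fewer than 10 reads. The neuronal miR-124-3p stood at 1690 to 2950 RPM in 2-VO and 1842 to 2866 RPM in sham libraries. All 6 neuronal markers were above 0 in all 10 libraries.

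The 5p arm of miR-296 was listed at 0 in each of the 5 2-VO and the 5 sham libraries, which puts it below 0.722 RPM in the library with the most reads and below 0.767 RPM in that with the fewest. The opposite arm of that hairpin was found in every library. miR-296-3p stood at 2.11, 1.76, 2.58, 2.85 and 2.82 RPM in 2-VO replicates 3, 5, 6, 7 and 8, against 2.82, 2.97, 2.21, 2.89 and 3.45 RPM in sham replicates 1 to 5. These values rest on 23 to 39 reads per 2-VO library and 29 to 45 reads per sham library. The groups overlap, with 2-VO replicate 5 the lowest and sham replicate 5 the highest. Set against the limit of 10 reads, the 3p arm was at least 2.3 times the 5p arm in 2-VO replicate 5 and at least 4.5 times in sham replicate 5, the libraries at the 2 ends. Such a pattern was common in the table. Of 221 hairpins with both arms named and 1 arm at a mean of at least 1 RPM, 68 had the other arm listed at 0 throughout, and in 36 of these it was the 5p arm.

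The most abundant member was miR-298-5p. It stood at 6.49, 5.42, 7.45, 6.09 and 6.58 RPM in 2-VO replicates 3, 5, 6, 7 and 8, against 7.29, 9.19, 8.15, 8.88 and 13.0 RPM in sham replicates 1 to 5. These were 71 to 98 reads per 2-VO library and 101 to 169 reads per sham library. The groups touch at 1 pair only, where 2-VO replicate 6 lay above sham replicate 1, and 4 of the 5 2-VO libraries lay below the lowest sham library. Sham replicate 5 stood above all others.

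Its partner arm miR-298-3p stood at 2.41, 3.51, 5.09, 3.01 and 3.40 RPM in 2-VO replicates 3, 5, 6, 7 and 8, against 4.40, 3.49, 3.89, 3.18 and 3.76 RPM in sham replicates 1 to 5. The reads numbered 33 to 67 in 2-VO and 43 to 61 in sham libraries. The 2-VO group held both the lowest and the highest value, in replicates 3 and 6, and the sham values lay between them.

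**Figure D1:**
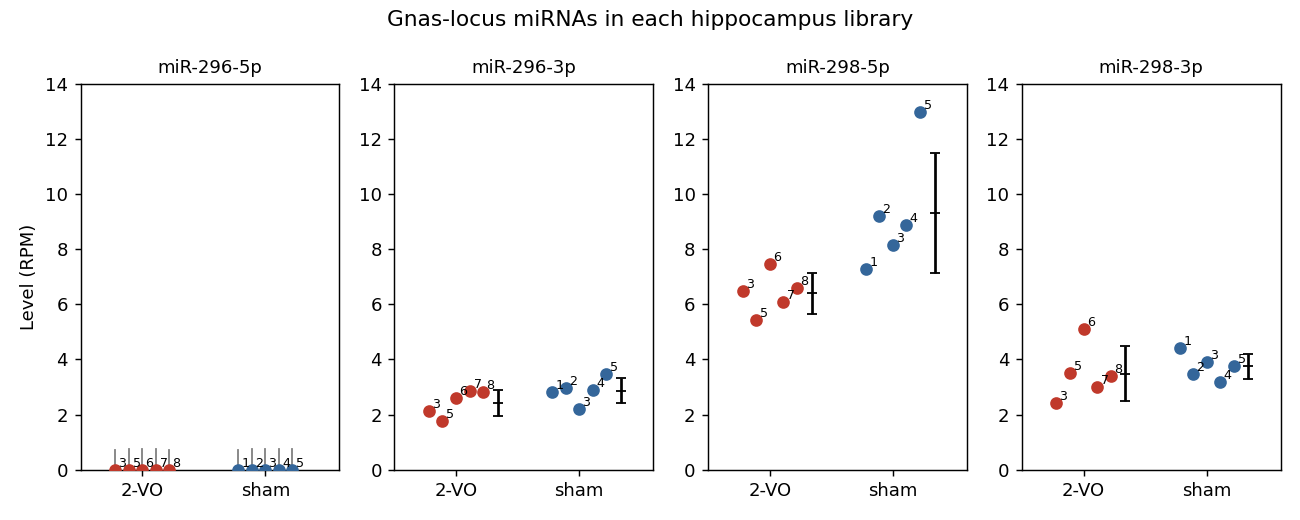
Level of each Gnas-locus miRNA in RPM (vertical axis) in the 2-VO (red) and sham (blue) libraries, with replicate numbers beside the points, and mean ± SD as black bars (n = 5 each). Grey lines on miR-296-5p reach the limit of a listed 0, at 0.722 to 0.767 RPM. Only for miR-298-5p do the 2 groups lie nearly apart.

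All 4 members were low. By mean RPM over the 10 libraries miR-298-5p ranked 355, miR-298-3p 398 and miR-296-3p 419 among the 528 miRNAs with any value above 0. The order of the reads was the same in each of the 10 libraries, miR-298-5p above miR-298-3p and this above miR-296-3p, although the ranges of the last 2 over libraries overlap. The lengths of 21 to 23 bases are nearly equal, but adapters do not join all small RNAs equally well, so this is an order of reads. The nearest miRNAs by level were miR-877 (7.93 ± 1.15 RPM) above and miR-501-3p (7.75 ± 1.37 RPM) below miR-298-5p (7.85 ± 2.16 RPM, SD, n = 10). For miR-298-3p they were miR-300-5p (3.65 ± 0.681 RPM) and miR-133c (3.58 ± 0.882 RPM), and for miR-296-3p they were miR-543-5p (2.65 ± 0.563 RPM) and miR-10b-5p (2.62 ± 1.29 RPM). These neighbours were picked by their level, so their closeness in level to the members is fixed by that choice.

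Counting error makes up much of the spread of the low members. For miR-296-3p the coefficient of variation was 19.6% in 2-VO and 15.5% in sham libraries, where counting alone gives about 17.5% and 16.1% at its mean read numbers. For miR-298-5p it was 11.6% in 2-VO libraries, with 10.8% from counting, and 23.4% in sham libraries, with 8.97% from counting. For miR-298-3p the larger spread was in the other group, 28.7% in 2-VO against 12.2% in sham libraries, with 14.6% and 14.1% from counting. Among the 181 miRNAs with a mean of 1 to 20 RPM the median coefficient of variation was 21.0% in 2-VO and 17.9% in sham libraries. Both spreads above counting rest on 1 library. Without sham replicate 5 the sham value of miR-298-5p was 10.1%, with 9.41% from counting, and without 2-VO replicate 6 the 2-VO value of miR-298-3p was 16.2%, with 15.5% from counting.

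Whether carotid occlusion went with other levels of these miRNAs was read from the comparison of 2-VO with sham. A fit over the 474 miRNAs that averaged 1 RPM or more gave no member past the threshold (limma's moderated test, Benjamini-Hochberg adjusted p under 0.05). It called 0 of the 474 miRNAs (0%), and 0 also with voom. At an unadjusted p under 0.05 it held 24 miRNAs, or 5.06% of those tested (25 with voom), and 20 of them, or 4.22%, were lower in 2-VO. One of the 3 fitted members, miR-298-5p, is among these 20, and since it was chosen with this result known nothing is read from that count.

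miR-298-5p averaged 6.40 ± 0.741 RPM in 2-VO and 9.30 ± 2.18 RPM in sham libraries (SD, n = 5 each), a log2 fold change of -0.46 ± 0.15 (SE) on the log2(RPM + 1) scale. Its 95% interval ran from -0.77 to -0.14, which is not adjusted for the number of miRNAs, and its adjusted p was 0.635 (limma). Its p was the 4th smallest of 474. Of the 25 pairs of a 2-VO and a sham library, 24 had the lower value in 2-VO, and 8 of the 474 miRNAs (1.69%) had at least as many. The groups did not overlap at all for 0.633% of the 474, and no member is among these.

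miR-296-3p averaged 2.43 ± 0.477 RPM in 2-VO and 2.87 ± 0.444 RPM in sham libraries, a log2 fold change of -0.18 ± 0.14 (SE; 95% interval -0.49 to 0.13, limma adjusted p = 0.854). miR-298-3p averaged 3.48 ± 0.999 RPM in 2-VO and 3.74 ± 0.458 RPM in sham libraries, a log2 fold change of -0.10 ± 0.16 (SE; 95% interval -0.44 to 0.23, limma adjusted p = 0.960). Both intervals hold 0 and also reach to falls as large as that estimated for miR-298-5p or close to it. The 3 fitted members had values below 0, as did 62.2% of all miRNAs. When RPM was rescaled to the listed miRNAs the share below 0 over all miRNAs was 49.4%, and the log2 fold changes were -0.41 for miR-298-5p, -0.14 for miR-296-3p and -0.062 for miR-298-3p. The direction of the 3 was thus the same under both scalings. Without 2-VO replicate 3, the library with the smallest share of listed reads, that of miR-298-3p was -0.011.

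**Figure D2:**
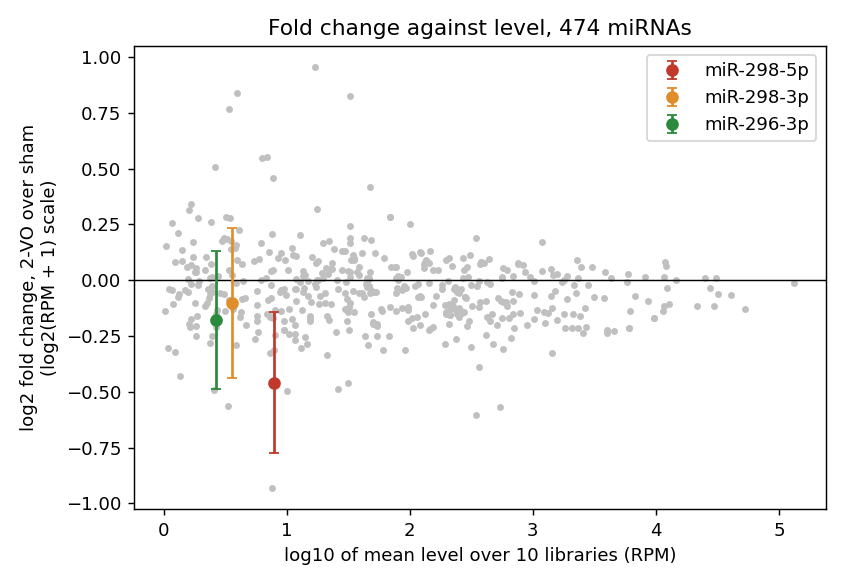
Log2 fold change of 2-VO over sham (vertical axis, log2(RPM + 1) scale) against log10 of the mean RPM over the 10 libraries (horizontal axis) for 474 miRNAs in grey, with the 3 fitted Gnas-locus miRNAs in colour and their 95% intervals as bars. The interval of miR-298-5p, at -0.77 to -0.14, lies below 0 before any adjustment, and those of miR-298-3p and miR-296-3p hold 0.

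The 2 arms of miR-298 could be compared within each library, where the divisor of the RPM values cancels. The 5p arm took 73.0%, 60.7%, 59.4%, 66.9% and 65.9% of the miR-298 reads in 2-VO replicates 3, 5, 6, 7 and 8, against 62.3%, 72.5%, 67.7%, 73.6% and 77.5% in sham replicates 1 to 5. Each of these shares rests on 117 to 218 reads, and its 95% Wilson interval covers counting error only, such as 64.5% to 80.0% in 2-VO replicate 3 and 71.5% to 82.6% in sham replicate 5. The group values were 65.2% ± 5.43 in 2-VO and 70.7% ± 5.85 in sham libraries (SD, n = 5 each), with overlapping ranges. The 5p arm was the larger one in all 10 libraries.

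Among the 132 hairpins with both arms kept, the log2 ratio between the arms of miR-298 (5p over 3p) averaged 0.75 ± 0.270 in 2-VO and 1.10 ± 0.354 in sham libraries (SD, n = 5 each, RPM + 1). The difference was -0.36 ± 0.17 (SE; 95% interval -0.71 to 0.0035, limma adjusted p = 0.429 over the 132 hairpins). The fit called 0 of the 132 hairpins (0%), and 15, or 11.4%, had an unadjusted p under 0.05, a group that does not hold miR-298. The ratio uses the same values as the levels and is not independent of them.

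**Figure D3:**
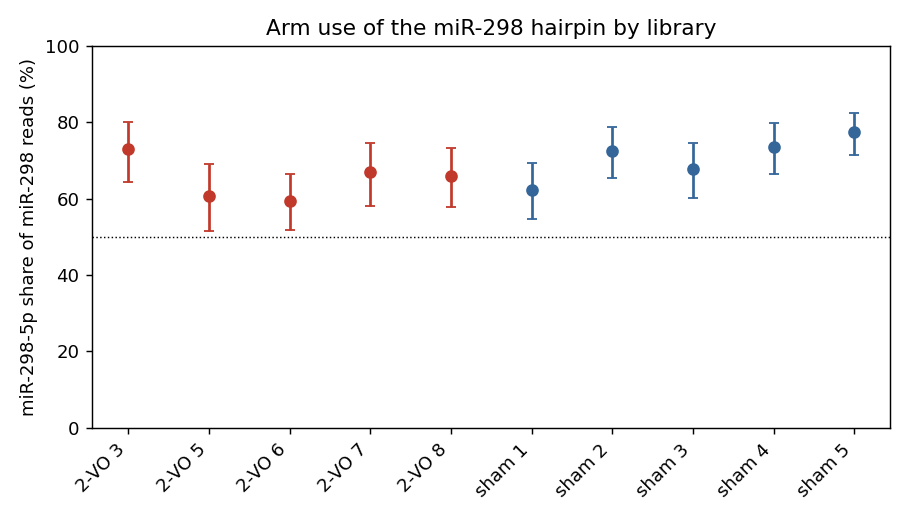
Share of the miR-298 reads that came from the 5p arm (vertical axis, %) in each 2-VO (red) and sham (blue) library, with 95% Wilson intervals for counting error, and a dotted line at 50%. All 10 points lie above the line, from 59.4% in 2-VO replicate 6 to 77.5% in sham replicate 5, and the groups overlap.

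The arms of miR-298 were less uneven than those of most hairpins of the table, although the 5p arm was 1.46 to 3.45 times the 3p arm by library. From the means over the 10 libraries the log2 arm ratio of miR-298, with 1 RPM added to each arm, was 0.94, and the median size of this ratio over the 132 hairpins was 3.53, whichever arm was larger. Only 17 of the 132 had a ratio nearer to even. The other hairpin of the locus could not be placed among them, since its 5p arm was listed at 0.

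**Figure D4:**
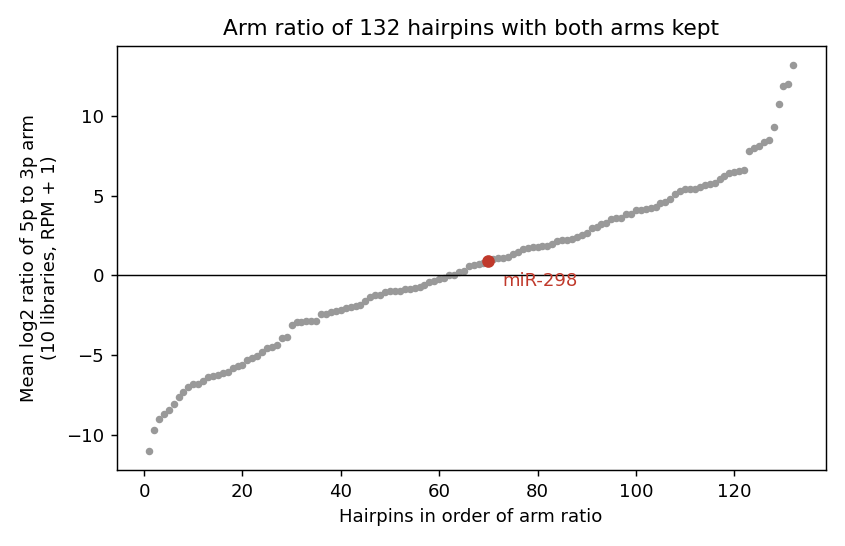
Log2 ratio between the arms (5p over 3p), averaged over the 10 libraries (vertical axis, RPM + 1), for 132 hairpins in order of that ratio (horizontal axis). The miR-298 hairpin (red) lies close to 0, between hairpins that favour the 3p arm on the left and those that favour the 5p arm on the right.

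Covariation among the members was looked at as the deviations of log2(RPM + 1) from the group means over the 10 libraries, a description that carries the shared divisor of each library. miR-298-5p and miR-296-3p, which come from different hairpins, had a Pearson correlation of 0.607 (Spearman 0.661), and 0.493 without the 2 libraries farthest from the median of miR-296-3p, sham replicate 3 and 2-VO replicate 5. The 2 arms of the single miR-298 hairpin had 0.0746 (Spearman -0.152). miR-298-3p and miR-296-3p had 0.0776 (Spearman -0.115). For comparison, the median over the 132 arm pairs was 0.557, 7.58% of them lay below the pair of miR-298, and the median over all pairs of the 474 miRNAs was 0.317. Without sham replicates 1 and 5, the libraries farthest from the median of miR-298-5p, the arms of miR-298 had 0.383, between the quartiles of the arm pairs over all libraries (0.308 and 0.758). Within the groups the levels of these arms had 0.476 in 2-VO and -0.335 in sham libraries (n = 5 each). miR-298-3p and miR-296-3p had 0.286 without sham replicate 3 and 2-VO replicate 5. Without sham replicate 5 alone the arms of miR-298 had 0.0973. Their value thus stayed low without that library and rose when sham replicate 1 was left out too. The quartiles of the arm pairs were not recomputed without these libraries. Counting error is part of the spread at these read numbers, and its share in the low value was not tested.

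The miRNAs most like each member in these deviations were found by the highest Pearson correlation among the 474. For miR-298-5p they were miR-503-3p (0.877), miR-140-5p (0.875) and let-7a-1-3p (0.862). These fell to 0.793, 0.578 and 0.595 without sham replicates 1 and 5, the libraries farthest from the median. For miR-298-3p they were miR-361-3p (0.935), miR-30d-5p (0.896) and let-7g-3p (0.893), or 0.672, 0.852 and 0.737 without 2-VO replicates 3 and 6. For miR-296-3p the highest were lower, miR-3579 (0.659), miR-98-5p (0.626) and miR-1839-5p (0.614), or 0.654, 0.829 and 0.432 without sham replicate 3 and 2-VO replicate 5. The 3 members shared none of these.

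A summed list of markers of the choroid plexus and the ependyma, the epithelia that line the ventricles beside the hippocampus, moved with miR-298-5p. The 8 miRNAs of that list, led by miR-34c-5p, miR-204-5p and miR-1298, were all above 0 in all 10 libraries. They summed to 1368, 1189, 1408, 1084 and 1333 RPM in 2-VO replicates 3, 5, 6, 7 and 8, against 1084, 1614, 1597, 1534 and 3020 RPM in sham replicates 1 to 5. Sham replicate 5, the highest library for miR-298-5p, was also by far the highest for this list, with miR-1298 at 993 RPM, against at most 405 RPM in the other sham libraries.

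The deviations of miR-298-5p and of the summed list had a Pearson correlation of 0.926 (Spearman 0.891), the highest of the 466 miRNAs outside the list, whose median was 0.193. Without sham replicate 5 the correlation was 0.763 (Spearman 0.700), which ranked 31 of 466 beside a median of 0.288, and without sham replicates 1 and 5 it was 0.691. For miR-296-3p it was 0.330, or -0.105 without sham replicate 5, and for miR-298-3p it was -0.0421, or -0.111. By single markers the values for miR-298-5p ran from 0.819 for miR-34c-5p and 0.807 for miR-1298 to 0.380 for miR-211-5p and -0.119 for miR-449a-5p. Without sham replicate 5 these were 0.652 for miR-34c-5p, 0.391 for miR-1298, 0.343 for miR-211-5p and 0.169 for miR-449a-5p. The value of miR-34c-5p was 0.376 without sham replicates 1 and 5. Over all libraries miR-204-3p, miR-448-3p and miR-34b-5p had 0.718, 0.767 and 0.761. Without sham replicates 1 and 5 they had 0.139, 0.188 and 0.0988. The defining marker miR-204-5p, at 0.735 over all libraries, had 0.367 without sham replicate 5.

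Of the 8 markers 7 were lower and 1 higher in 2-VO (median log2 fold change -0.21, against -0.051 over all 474), and 0 passed the adjusted threshold (limma). With RPM rescaled to the listed miRNAs 6 were lower and 2 higher. Over all 474 miRNAs 62.2% were lower in 2-VO, or 49.4% when rescaled. The defining marker miR-204-5p averaged 432 ± 75.7 RPM in 2-VO (367 to 548) and 646 ± 145 RPM in sham libraries (523 to 893). The other large markers of the sum were miR-34c-5p, at 561 ± 88.3 and 645 ± 279 RPM, and miR-1298, at 251 ± 73.8 and 437 ± 319 RPM. miR-298-5p per 1000 RPM of the list was 5.03 ± 0.424 RPM in 2-VO and 5.52 ± 0.900 RPM in sham libraries (SD, n = 5 each), with ranges of 4.56 to 5.61 and 4.29 to 6.73. Sham replicate 5, with its high sum of the list, held the lowest of these values. Over all libraries 2-VO lay below sham in 18 of 25 pairs. Without sham replicate 5, left out with its values known, the sham libraries were at 5.83 ± 0.670 RPM (SD, n = 4, range 5.11 to 6.73). 2-VO then lay below sham in 18 of 20 pairs of libraries. The difference of the means, 2-VO minus sham, was -0.802 RPM without sham replicate 5 and -0.494 RPM over all libraries. The values per list depend on which markers make up the sum, and miR-298-5p was not set against miR-204-5p alone. The part of these markers in the level of miR-298-5p was not tested, and in bulk tissue fewer cells of a type and less RNA per cell cannot be told apart. The log2 fold change of miR-298-5p without sham replicate 5 was -0.34 (limma adjusted p = 0.470).

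**Figure D5:**
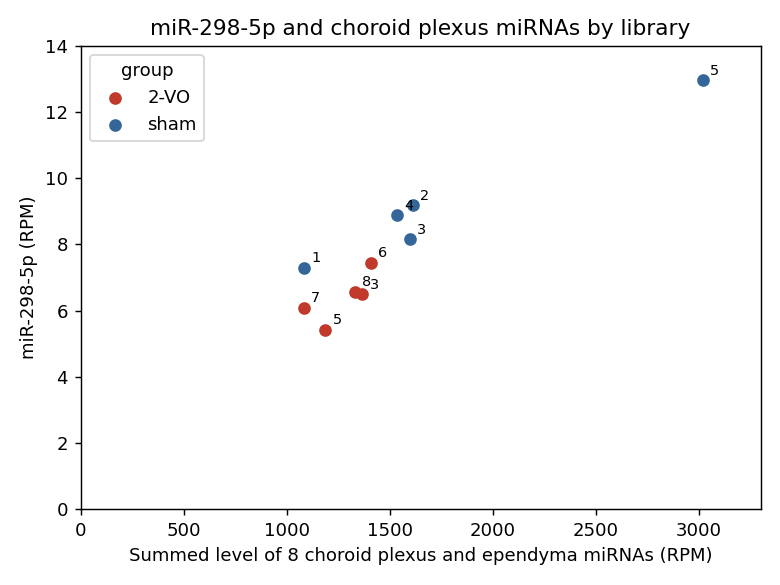
Level of miR-298-5p (vertical axis, RPM) against the summed level of 8 choroid plexus and ependyma miRNAs (horizontal axis, RPM) in each 2-VO (red) and sham (blue) library, with replicate numbers. Sham replicate 5 stands alone at 3020 and 13.0 RPM, and the other 9 libraries lie between 1084 and 1614 RPM on the horizontal axis.

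Over all 10 libraries the other marker lists had lower correlations with miR-298-5p than the choroid plexus and ependyma list. These other lists were not recomputed without sham replicate 5, in which the choroid plexus and ependyma list stood far above the rest. The Pearson correlation of the deviations was 0.605 for the list of other epithelium and brain regions (41.0 to 130.6 RPM in 2-VO and 35.4 to 98.9 RPM in sham libraries, 10 of 11 markers above 0, and its defining marker miR-200a-3p at 0 in 2 libraries). It was 0.479 for the oligodendrocyte list (defining marker miR-219a-5p) and 0.217 for the endothelial one (miR-126a-3p). It was 0.195 for neurons, 0.154 for astrocytes (miR-23b-3p), 0.137 for red blood cells (miR-451-5p), 0.0644 for leukocytes and microglia (miR-142-3p) and -0.0779 for the vascular wall (miR-143-3p). miR-298-3p had its highest values with other lists, 0.775 with neurons and 0.700 with the vascular wall. 2-VO replicate 6 was the highest library for both lists, for miR-298-3p and for the share of listed reads (78.0%). The values of miR-298-3p were not recomputed without that library. The highest correlation of miR-296-3p was 0.405, with red blood cells.

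Other imprinted loci give a scale for these levels. The Dlk1-Dio3 locus, whose miRNAs come from the maternal chromosome, has 90 names in the table, of which 77 were kept. It summed to 65231 ± 9133 RPM in 2-VO and 68584 ± 4979 RPM in sham libraries (SD, n = 5 each), while the Gnas locus summed to 12.3 ± 1.78 and 15.9 ± 2.45 RPM. Of the 77 kept, 25 were higher and 52 lower in 2-VO, with a median log2 fold change of -0.067. When rescaled to the listed miRNAs, 35 were higher and 42 lower, with a median of -0.011. Over all 474 miRNAs 62.2% were lower, or 49.4% when rescaled, and 5.06% had an unadjusted p under 0.05 (limma). None of the 77 passed the threshold (limma; 4 had an unadjusted p under 0.05). The 2 with the smallest p of those at 10 RPM or more were miR-433-3p (log2 fold change -0.26) and miR-409b (-0.31), each with a limma adjusted p of 0.764.

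The miRNA of the Mest locus, miR-335, stood at 55.4 ± 11.3 RPM in 2-VO and 61.6 ± 17.9 RPM in sham libraries (log2 fold change -0.13, limma adjusted p = 0.960). From the neighbouring Igf2 and H19 genes, miR-483-5p, miR-675-5p and miR-675-3p were listed at 0 in all 10 libraries, and miR-483-3p lay between 0 and 1.69 RPM. The Gnas-locus miRNAs thus stood below those of the Dlk1-Dio3 and Mest loci in summed RPM and above those of Igf2 and H19. These sums run over 90 names for Dlk1-Dio3, 4 for Gnas, 1 for Mest and 4 for Igf2 and H19. The median over names of the mean RPM was 44.9 for Dlk1-Dio3 and 3.13 for Gnas. Of these names 8 of Dlk1-Dio3 and 1 of Gnas were listed at 0 throughout.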

How the data were processed

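Small RNA was sequenced from rat hippocampus, 5 2-VO and 5 sham libraries. Trizol RNA was ligated to adapters, amplified and size-selected on a gel, per the labels' protocols, which name no molecular identifiers. The authors deposited 1 RPM value per mature miRNA and library, per the file headers. bcl2fastq, BWA and the build rn6 are named in the submitters' processing notes. No source used here gives the annotation, the handling of reads that match several places or what the divisor counts, and each RPM value depends on that divisor.

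All 4962 values above 0 were whole reads within 0.01 reads at 1 divisor per library, taking the smallest value above 0 as 10 reads. From the deposited RPM, log2(RPM + 1) was fitted with limma 3.58.1 in R 4.3.3 (mean-variance trend, two-sided, no covariate) for the 474 miRNAs that averaged 1 RPM or more, with Benjamini-Hochberg adjustment over all of them and a threshold of 0.05. The ratio of arms was fitted likewise for 132 hairpins. The fit was tested on simulated data. The planted changes were larger than those estimated for the members, and changes of the members' size were not simulated. Intervals are 95%, and those on reads cover counting error only. Alternatives changed the pseudocount, filter, scaling, empirical Bayes and block, or left out each library. A count test on the reads (edgeR) was planned but not run. A unit check that takes the smallest value as 1 read did not accept the values as whole reads. In its place limma's voom was run on the reads, where counts under 10 are listed as 0. It was added after seeing the data.

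The members, marker lists, imprinted lists and tests were chosen with earlier results of these data known. Named beside the members are the 3 most correlated miRNAs of each, its neighbours by level, the imprinted miRNAs (of Dlk1-Dio3 the 2 with the smallest p at 10 RPM or more) and the defining markers. Sequences and their GRCr8 positions are from RefSeq.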

Additional observations from a re-analysis of the deposited data

Results flagged for a closer look

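The summed level of the Gnas-locus miRNAs in sham replicate 5 was 20.2 RPM, while the other 4 sham libraries lay between 14.3 and 15.6 RPM. Its gap to the nearest library was more than 0.71 of the range of the 5. This was 1 of 10 groups of 5 values looked at, and chance gives such a gap in about 1 group in 20.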

How the results depend on the processing

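No member passed the adjusted threshold, and none changed direction, under any of 9 other settings or without any single library. The log2 fold changes ranged over the other settings from -0.71 to -0.32 for miR-298-5p, -0.37 to -0.084 for miR-296-3p and -0.30 to -0.050 for miR-298-3p, and the difference in the miR-298 arm ratio from -0.41 to -0.27 over 7. Without each library in turn they ran from -0.53 to -0.34, -0.24 to -0.10, -0.22 to -0.011 and -0.48 to -0.24. The number of miRNAs past the threshold was then 0 throughout, and that of hairpins 0 to 3 (3 without sham replicate 5, 1 without 2-VO replicate 3, 0 otherwise). Replicate numbers 3 and 5 occur in both groups. With the number as a replicate block, on those 4 libraries alone, 8 miRNAs passed, none of them a member, with log2 fold changes of -0.71, -0.37 and -0.30 and an arm ratio difference of -0.41. Libraries of the same number did not deviate together (correlations of -0.058 and -0.18). Only 2 numbers are shared, so these values cannot decide whether the number marks a pairing. The block fit rests on few libraries, which leaves little to estimate their spread from. The planned edgeR test on reads was not run, and miR-296-5p, under 10 reads in each library, has no fitted value.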
